A study of Macaca fascicularis with 9 samples.

Results

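The nuclei described here are the myeloid nuclei in which MALAT1 made up less than 1% of the RNA molecules counted, in monkeys given a MALAT1 antisense oligonucleotide into the spinal fluid. They were chosen by 2 deposited values, the authors' cell type name (Myeloid) and the number of MALAT1 UMIs (unique molecular identifiers, one per captured RNA molecule) divided by the nucleus's total UMIs. They number 343 of 602 myeloid nuclei in ASO replicate 1, 0 of 647 in ASO replicate 2 and 0 of 587 in ASO replicate 3, so all 343 come from 1 animal and 1 library. The whole series holds 79994 nuclei, of which 5727 are myeloid and 1836 of those are from the ASO animals. The counts of 0 allow a share of up to 0.464% in ASO replicate 2 and up to 0.511% in ASO replicate 3, counting error only. Because a single library holds every one of them, the contrast inside that animal has no replicate and no test of its own.

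The data are droplet single-nucleus RNA counts from the thalamus of cynomolgus monkeys, 9 females in all, with 3 groups of 3. The ASO group received 1 intrathecal dose of 4 mg of the MALAT1 oligonucleotide, the saline group 4 intravenous doses of saline, and the OTV group 4 intravenous doses of OTV:MALAT1 at 30 mpk, an oligonucleotide carried by a transport vehicle. Tissue was frozen 2 weeks after the last dose in all 9 animals, nuclei were sorted on a DNA stain, and the labels give no age or strain. The groups therefore differ in route and number of doses as well as in agent, and no animal received saline into the spinal fluid.

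MALAT1 is a noncoding transcript kept inside the nucleus. It gathers at nuclear speckles where splicing factors are stored and is among the most abundant transcripts there. An antisense oligonucleotide of the usual gapmer kind pairs with its target RNA and lets RNase H cut it, which is why a nuclear transcript can serve as a readout of oligonucleotide action. Microglia, the resident macrophages of brain tissue, and the macrophages of its borders take up particles and nucleic acids from their surroundings through scavenger receptors and endosomes.

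Libraries held between 19981249 and 98850459 UMIs (81204271 in ASO replicate 1) and between 2956 and 11992 nuclei. The authors' table marks all 79994 nuclei as singlets. Across libraries 760 barcode sequences occur more than once, 4 of them among myeloid nuclei. The myeloid class is split by the authors' clustering into clusters 7 and 9. In ASO replicate 1 these have a median of 3394 and 5216 UMIs per nucleus.

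In ASO replicate 1 the MALAT1 share of myeloid nuclei ran from 0.0499% to 7.73%, with a median of 0.829% and quartiles of 0.445% and 1.84%. The distribution was wide, with its mode under 1% and a tail into the range of the other animals. ASO replicates 2 and 3 had medians of 2.53% and 3.01%, and their lowest nuclei were at 1.05% and 1.26%. The saline animals had medians of 3.48%, 3.10% and 3.21%, and the OTV animals 1.82%, 1.85% and 1.89%. The OTV distributions were thus shifted as a whole and narrow, and those of ASO replicates 2 and 3 kept most nuclei above 2%. These values chose the nuclei and are a description.

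**Figure D1:**
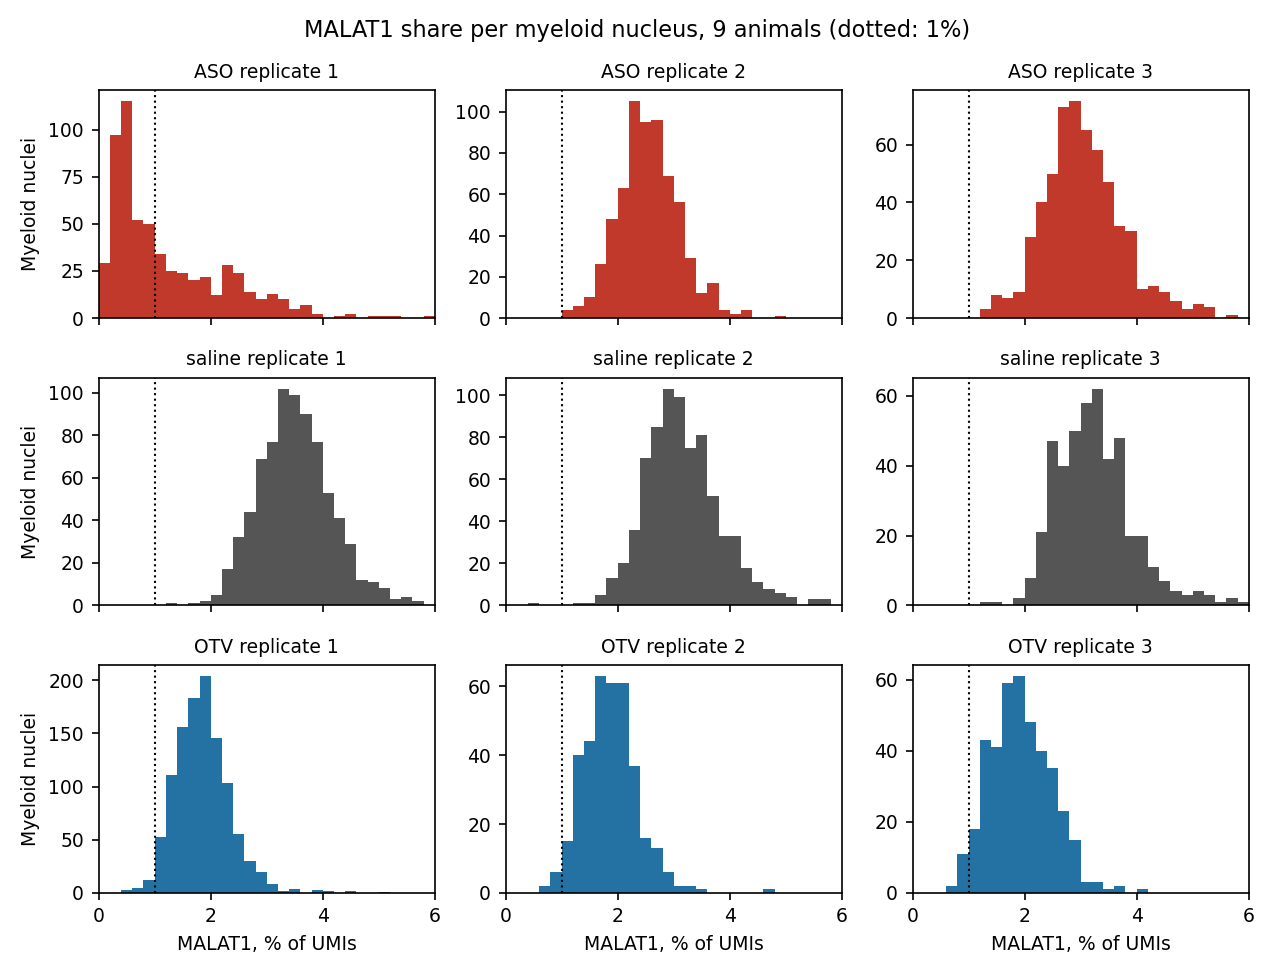
Histograms of MALAT1 as a percent of all UMIs (x axis, cut at 6%) over myeloid nuclei (y axis, number of nuclei) in each of the 9 animals, with the 1% limit dotted. ASO replicate 1 has most nuclei left of the line, with 343 of 602 there, and the other 8 animals have between 0 and 20.

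The same limit took 1 of 767 myeloid nuclei in saline replicate 2 and 0 in saline replicates 1 and 3. It took 20 of 1103 (1.81%), 8 of 370 (2.16%) and 13 of 406 (3.20%) in OTV replicates 1, 2 and 3, against 57.0% in ASO replicate 1 (Wilson 95% interval 52.99% to 60.88%). No myeloid nucleus of the 3 OTV animals lay under 0.5%, where ASO replicate 1 had 186. The nuclei nearest the limit had 51 of 5187 UMIs (0.983%), 46 of 4678 (0.983%) and 56 of 5633 (0.994%) inside it, and 38 of 3771 (1.01%), 44 of 4354 (1.01%) and 46 of 4520 (1.02%) outside it. No gap in the values therefore sets the 343 nuclei off from their neighbours.

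None of the 602 nuclei lacked MALAT1, and the fewest MALAT1 UMIs in a nucleus were 3. The 343 nuclei had a median of 21 MALAT1 UMIs (3 to 78) and the other 259 a median of 87 (28 to 263). Free RNA from other cells enters every droplet, and its part in the remaining MALAT1 was not tested. As a gauge of it, transcripts of the oligodendrocyte list (MAG and other marker genes) made up 0.132% of UMIs in the 343 nuclei and 0.131% in the others, against 1.66% in oligodendrocyte nuclei of that library. For each UMI of that list the 343 nuclei held 3.75 MALAT1 UMIs, the other myeloid nuclei 16.0 and the oligodendrocyte nuclei 2.85.

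The low nuclei were found in both myeloid clusters of the animal. They were 123 of 229 in cluster 7 (53.7%, Wilson interval 47.3% to 60.1%) and 220 of 373 in cluster 9 (59.0%, 53.9% to 63.9%). Thinning each nucleus to 1000 UMIs left 331 nuclei under 1% (55.0%).

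**Figure D2:**
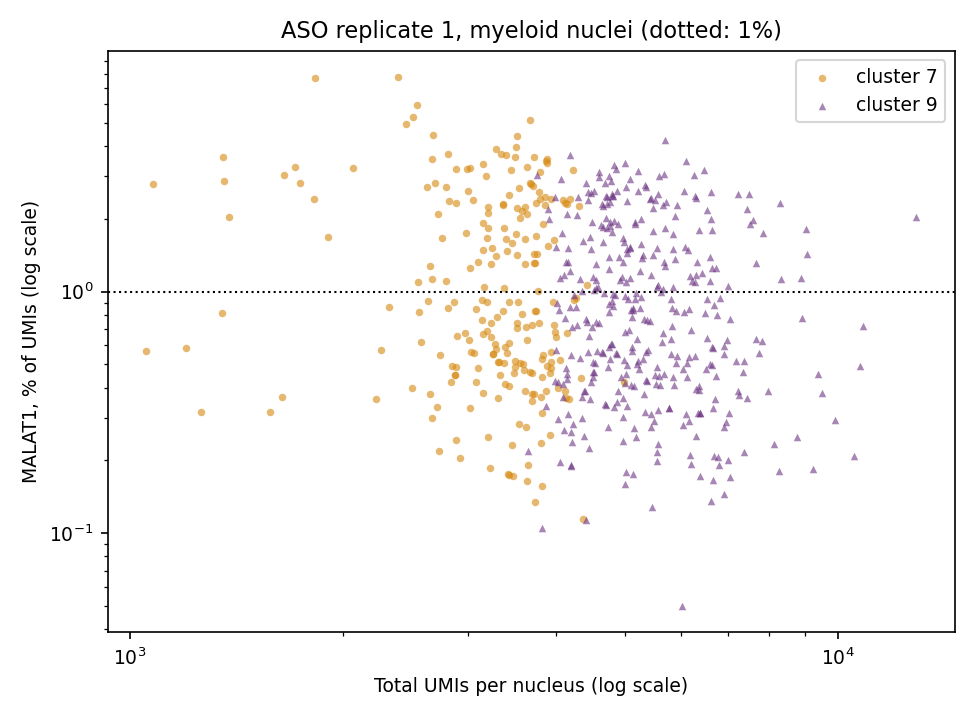
Each point is a myeloid nucleus of ASO replicate 1, with its total UMIs on the x axis (log scale) and MALAT1 as a percent of UMIs on the y axis (log scale), coloured by cluster, with the 1% limit dotted. Nuclei under the line occur at all depths of both clusters, 123 in cluster 7 and 220 in cluster 9.

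Other cell types of the same library had far fewer such nuclei. Oligodendrocyte precursor cells (OPCs) had 54 of 921 (5.86%), oligodendrocytes 186 of 9752 (1.91%), astrocytes 9 of 687 (1.31%) and neurons 0 of 18. These shares use the value that chose the nuclei and come from 1 animal, so they are a description. A fixed limit also meets unlike starting levels, as saline medians ran from 3.10% to 3.48% in myeloid nuclei and from 6.16% to 6.80% in oligodendrocytes. In the other ASO animals the types with any nucleus under 1% were OPCs, with 5 of 491 in ASO replicate 2 and 1 of 904 in ASO replicate 3.

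**Figure D3:**
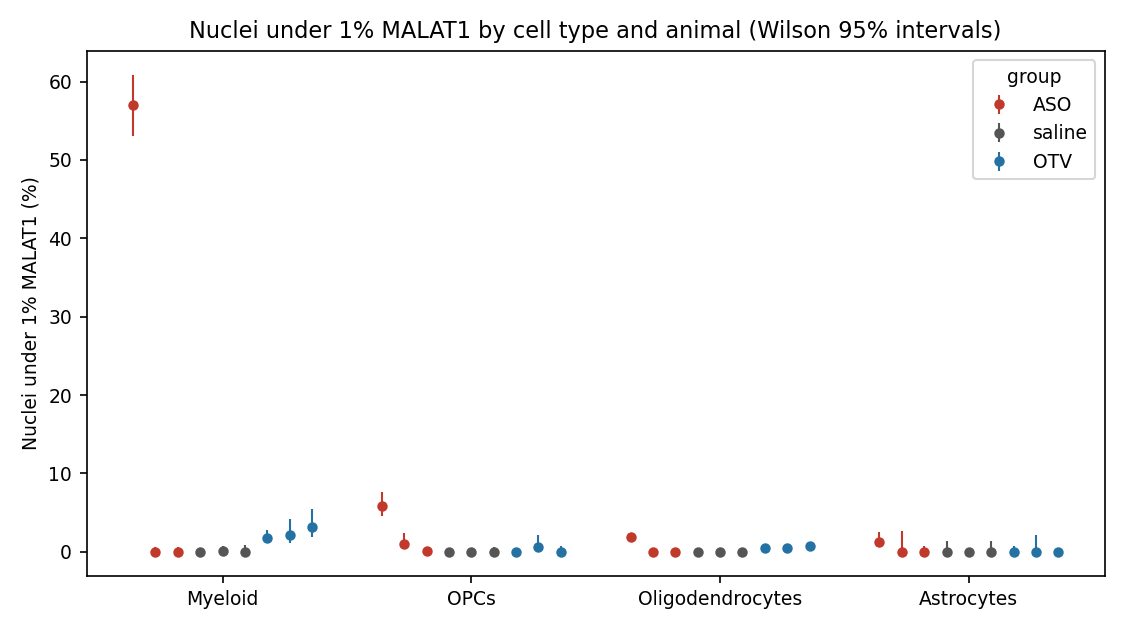
Percent of nuclei under 1% MALAT1 (y axis) for 4 cell types (x axis) in each of the 9 animals (points, coloured by group, replicates 1 to 3 from left to right), with Wilson 95% intervals. Myeloid nuclei of ASO replicate 1 stand at 57.0%, and the next highest point, OPCs of the same animal, at 5.86%.

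For the comparison of other genes, each low nucleus was paired with another myeloid nucleus of the same animal and cluster whose total UMIs without MALAT1 differed by at most 0.25 on the log2 scale. This gave 256 pairs, 103 in cluster 7 and 153 in cluster 9. Median UMIs per nucleus were 4378 in the low nuclei and 4474 in their partners, and median authors' doublet scores were 9.9e-05 and 9.9e-05. MALAT1 was left out of all totals below. Levels are CPM, the UMIs of a gene scaled to a common library total, and ratios are low nuclei over partners with exact 95% intervals that cover counting error only, not the spread between nuclei or animals.

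The sum of the microglial identity genes was close in low nuclei and partners, with single genes differing both ways. The 24 microglial identity genes in the table together gave 13949 UMIs in the low nuclei and 13938 in the partners, a ratio of 0.999 (0.976 to 1.02). The lowest 25% by MALAT1 had ratios of 1.01 to 1.08 in the other 8 animals, all above it, and 0.964 (0.936 to 0.993) in ASO replicate 1. P2RY12, the purinergic receptor of resting microglia, had 308 and 300 UMIs (ratio 1.02, 0.872 to 1.21), and CX3CR1, the fractalkine receptor, had 738 and 766 (0.962, 0.868 to 1.07). CSF1R, the receptor on which microglia depend for survival, had 901 and 991 (0.908, 0.829 to 0.995). Of the 23 identity genes with 20 UMIs, 2 had an interval above 1 (CD74 with 196 and 97 UMIs, ratio 2.02, and ITGAM, ratio 1.21) and 2 below 1 (CSF1R and PTPRC, ratio 0.899), beside 4.26% and 4.72% of all 9230 genes with 20 UMIs. The most abundant identity genes, the phosphatase gene INPP5D and the cytoskeletal regulators DOCK8 and APBB1IP, had ratios of 1.02, 1.01 and 0.965, each with an interval that holds 1.

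Of the marker lists of other cells, those of neurons, lymphocytes and border macrophages (given further on) had an interval off 1. The ratios were 1.03 (0.963 to 1.11) for oligodendrocyte genes, 1.11 (0.907 to 1.36) for OPC genes, 0.931 (0.859 to 1.01) for astrocyte genes, 1.04 (0.946 to 1.14) for endothelial and mural genes and 0.924 (0.796 to 1.07) for monocyte and neutrophil genes. Neuronal genes stood at 0.855 (0.753 to 0.970), led by KCNIP4 with 326 and 387 UMIs. Those UMIs lay in 57 low nuclei and 60 partners, with up to 18 and 35 in 1 nucleus. The list's ratio lies inside the range of the lowest 25% by MALAT1 in the other 8 animals (0.689 to 1.08). Under that rule the list in ASO replicate 1 turned to 1.04 (0.881 to 1.22). Lymphocyte genes stood at 0.477 (0.391 to 0.581), with SKAP1, an adaptor of T cell signalling, at 28 and 87 UMIs and CAMK4 at 7 and 43. In ASO replicate 1, 8 myeloid nuclei carried at least 5 genes of the lymphocyte list, all in cluster 7, with MALAT1 between 3.22% and 7.73%, so none of them is among the 343. Without nuclei that carry 3 or more of those genes the lymphocyte ratio was 1.02 (0.791 to 1.31). Without those nuclei the count of genes at least 2-fold lower, given next, also went from 199 to 156.

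Among 9230 genes with at least 20 UMIs in both sums together, 127 were at least 2-fold higher in the low nuclei (1.38% of genes) and 199 at least 2-fold lower (2.16%). Equal counts gave a ratio of 0.998 in this scaling, so counts exactly 2-fold apart passed as lower but not as higher. The split of 127 and 199 genes depends on the scaling and on the nuclei compared. It was 159 higher and 166 lower with MALAT1 kept in the totals, 157 and 199 with DESeq2 size factors, and 155 and 156 without nuclei carrying 3 lymphocyte genes. The median log2 ratio of these genes was 0.00. Of the 2612 genes with at least 200 UMIs, 3 were 2-fold higher (0.115%) and 0 were 2-fold lower (0.0%). Counting intervals lay above 1 for 393 of the 9230 genes (4.26%) and below 1 for 436 (4.72%). Large ratios were thus mostly those of genes with few UMIs.

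The microglial activation list was higher in sum, and a minority of its genes had an interval off 1 of their own. It summed to 4044 UMIs against 3363, or 0.354% against 0.295% of UMIs, a ratio of 1.20 (1.15 to 1.26). With the lowest 25% of nuclei by MALAT1 in place of those under 1% it was 1.055 (0.998 to 1.12), inside the 0.883 to 1.14 of the other 8 animals under that rule. Of its 23 genes with at least 20 UMIs, 7 had an interval above 1 and 0 below 1, beside 4.26% and 4.72% of all genes, and the median log2 ratio was 0.25 beside 0.00 for all genes. APOE, the lipid carrier that microglia raise around damage and plaques, had 568 UMIs in the low nuclei and 360 in the partners (ratio 1.58, 1.38 to 1.80). CLEC7A, the beta-glucan receptor dectin-1, had 40 and 9 UMIs (4.44, 2.12 to 10.4). It had the largest ratio among the genes with a symbol in the table of 9230. Its ratio was 2.12 (1.16 to 4.02) with the lowest 25% by MALAT1 and 8.14 (3.22 to 26.4) with a limit of 0.5%.

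The other 5 with an interval above 1 were SPP1 (osteopontin; 190 and 138 UMIs, ratio 1.38), PPARG (a nuclear receptor of lipid metabolism; 270 and 196, ratio 1.38), MITF (a transcription factor of lysosomal genes; 286 and 209, ratio 1.37), CD83 (115 and 76, ratio 1.51) and the motor protein gene MYO1E (413 and 331, ratio 1.25). The list was not raised throughout. The lysosomal proteases CTSB and CTSS had ratios of 1.04 and 1.01, AXL had 106 and 103 UMIs, and ITGAX had 22 and 30. APOE is also an astrocyte transcript, and the part of astrocyte RNA in its ratio was not tested. The astrocyte list, at 0.931, was mostly SLC1A3, with 1032 of 1161 UMIs in the low nuclei and 1132 of 1245 in the partners. SLC1A3 was found in 211 low nuclei and 209 partners, so the list is a poor gauge of astrocyte RNA here. The astrocyte water channel gene AQP4 had 24 and 20 UMIs and GFAP 16 and 18.

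Of 9 border macrophage genes with 20 UMIs, 4 had an interval below 1 and 0 above, beside 4.72% and 4.26% of all genes. The list had a ratio of 0.889 (0.831 to 0.951), and the lowest 25% by MALAT1 in the other 8 animals had ratios of 0.880 to 1.21, a range that holds it. The interval held 1 in cluster 7 (0.926, 0.809 to 1.06) and with a limit of 0.5% (0.938, 0.871 to 1.01). MRC1, the mannose receptor of perivascular and meningeal macrophages, had 500 UMIs in the low nuclei and 628 in the partners (ratio 0.795, 0.705 to 0.896). STAB1, a scavenger receptor, had 102 and 134 UMIs (0.760, 0.582 to 0.991), and CD163L1 16 and 38 (0.420, 0.219 to 0.772). CD163, another marker of these macrophages, had 80 and 78 UMIs, and MS4A7 736 and 703. COLEC12, a scavenger receptor of the collectin family, had 0 UMIs in the paired low nuclei and 48 in the partners, at least 16.0-fold lower when 3 UMIs are taken as the floor of the sum. Those 48 UMIs lay in 5 nuclei, 25 of them in 1 nucleus, and low nuclei left unpaired held 4.

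Receptors linked to oligonucleotide uptake did not move as one list, with a ratio of 0.989 (0.937 to 1.04). ITGAM, an integrin subunit of the complement receptor, had 539 and 445 UMIs (1.21, 1.07 to 1.37). The scavenger receptor gene SCARB1 had 362 and 371, the endocytic receptor gene LRP1 321 and 311, and MSR1 196 and 193. In this list 2 genes had an interval above 1 (CLEC7A and ITGAM) and 3 below 1 (COLEC12, STAB1 and MRC1) of 17 with 20 UMIs, beside 4.26% and 4.72% of all genes. Genes of endosome and lysosome traffic stood at 0.999 (0.950 to 1.05), with RAB7A, the late endosome GTPase, at 306 and 293 UMIs.

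RNA cleavage and decay genes had a ratio of 0.997 (0.935 to 1.06), with the exonuclease gene XRN1 at 243 and 214 UMIs. Genes of nuclear speckles and splicing, the structures MALAT1 is known for, summed to 8755 and 8756 UMIs, a ratio of 0.998 (0.969 to 1.03). Of their 32 genes 0 had an interval above 1 and 1 below 1 (CLK4), no more than the 4.26% and 4.72% of all genes. The genes that lie near MALAT1 on its chromosome in human had 98 and 97 UMIs together (1.01, 0.754 to 1.35), and LTBP3 among them had 5 and 10. A list of other nuclear noncoding RNAs had 0 genes in the table.

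Genes that answer to foreign nucleic acid showed little difference as lists. Nucleic acid sensors stood at 1.04 (0.995 to 1.09), with IFI16 at 1983 and 1914 UMIs and AIM2, a DNA sensor of inflammasomes, at 967 and 885. TLR8, an endosomal RNA sensor, had 22 and 7 UMIs (3.14, 1.30 to 8.70). The interferon response list stood at 0.977 (0.916 to 1.04). By interval 2 of its 14 genes were above 1 and 1 below, beside 4.26% and 4.72% of all genes. HERC5 had 39 and 18 UMIs (2.16, 1.21 to 4.02) and PARP14 138 and 203 (0.679, 0.543 to 0.847). Inflammatory cytokine genes stood at 0.979 (0.915 to 1.05), immediate early and stress genes at 1.01 (0.853 to 1.20) and p53 targets at 1.06 (0.948 to 1.19), with ZMAT3 at 26 and 7 UMIs and CCNG1 at 16 and 35. Cytosolic ribosomal protein genes stood at 1.07 (1.00 to 1.14) and cell cycle genes at 1.12 (0.864 to 1.46). With the lowest 25% by MALAT1 the cell cycle list was at 1.76 (1.31 to 2.37), beside 0.756 to 1.65 in the other 8 animals, and HERC5 turned to 0.944 (0.457 to 1.94). Mitochondrial transcripts had 5 and 3 UMIs, too few for a comparison.

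An unnamed gene, ENSMFAG00000046424, separated the ASO animals from saline in an earlier reading of these data. In all myeloid nuclei it had 195, 621 and 284 UMIs in the ASO animals 0, 1 and 1 in the saline animals and 13, 2 and 3 in the OTV animals. Within ASO replicate 1 it had 83 UMIs in the low nuclei and 83 in the partners, a ratio of 0.998 (0.728 to 1.37). SGCB, a sarcoglycan gene from the same earlier result, had 111 and 94 (1.18, 0.888 to 1.57). Of the remaining genes of that result, ENSMFAG00000046427 had 25 and 22 UMIs, CD274 8 and 13, GIPR 2 and 0 and FAM186A 1 and 1. Low nuclei and partners thus carried these transcripts at levels not told apart at this depth.

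Only genes with a symbol were ranked by ratio. After CLEC7A the highest of those with 20 UMIs were TMEM19, GPC3, E2F6 and LRRC47, with ratios of 4.24, 4.24, 4.24 and 4.14 from at most 36 UMIs each. SLC7A5, INPP5E, ECHDC3, ZMAT3 and BLZF1 followed, between 3.99 and 3.49. These ratios were smaller with the lowest 25% by MALAT1, at 1.29 for LRRC47, 1.20 for ZMAT3, 1.17 for BLZF1, 2.00 for SLC7A5, 2.20 for INPP5E, 2.67 for GPC3, 3.00 for TMEM19 and 3.75 for E2F6, and ECHDC3 turned to 0.80. The lowest after COLEC12 were ITGA4, the alpha-4 integrin of circulating leukocytes, with 2 and 70 UMIs, then ATP10A, FSIP1, TC2N, SORCS1, RIPOR2, THEMIS, CHST15 and ZNF8. The 70 ITGA4 UMIs lay in 11 partner nuclei, and without nuclei carrying lymphocyte genes its ratio moved from 0.0285 to 0.200. THEMIS, like CAMK4, is on the lymphocyte list.

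Genes with at least 200 UMIs carry narrower intervals, and that limit was chosen after their values were seen. Here too only genes with a symbol were ranked. The highest were TMEM156, a membrane protein gene, with 220 UMIs in the low nuclei and 82 in the partners (ratio 2.68, 2.07 to 3.50), PPM1L, a protein phosphatase gene, with 153 and 65 (2.35, 1.75 to 3.19), and CD74, the invariant chain of antigen presentation, with 196 and 97 (2.02, 1.57 to 2.60). RILPL1 (1.99), PPP1R13B (1.97), APOC1, an apolipoprotein (1.96), and ITPR1, a calcium channel of the endoplasmic reticulum (1.76), came next. In cluster 7 alone the intervals of RILPL1 (1.29, 0.836 to 1.995) and PPM1L (1.51, 0.865 to 2.67) held 1. TMEM156, CD74, PPP1R13B, APOC1 and ITPR1 had ratios of 2.31, 2.925, 2.57, 1.96 and 2.27 there, with intervals above 1. The lowest were TP63 with 319 and 518 UMIs (0.615, 0.533 to 0.708), the endocytic adaptor gene DAB2 with 188 and 300 (0.626, 0.519 to 0.753), WLS (0.627) and CRIM1 (0.632). With the lowest 25% by MALAT1 the intervals of DAB2 (0.867, 0.693 to 1.085), WLS (0.753, 0.509 to 1.109) and CRIM1 (0.798, 0.625 to 1.018) held 1. TP63 stayed below 1 there (0.588, 0.486 to 0.711). The other 8 animals had TP63 ratios of 0.381 to 1.28 under that rule, a range that holds its 0.615.

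Levels over finer steps of MALAT1 share are given as a description, because the genes were picked for their ratio between nuclei under and over 1% and that choice partly sets the order. In 7 bins of MALAT1 share that hold 48, 138, 157, 71, 54, 88 and 46 nuclei, from under 0.25% to 3% and over, TMEM156 had 233, 220, 118, 92.5, 51.4, 73.1 and 61.2 CPM. ITPR1 had 365, 254, 168, 148, 127, 154 and 110 CPM in the same order, and PPM1L 193, 136, 97.3, 57.8, 71.2, 47.0 and 61.2 CPM. Among the bins under 1% these 3 genes were highest in the lowest, and they had no clear order above 1%. For each of the 3 the counting intervals of the lowest bin and the next overlapped. Those of TMEM156 were 176.7 to 300.8 and 185.5 to 258.1 CPM. The bins were not matched for depth or cluster.

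APOE had 602, 435, 506, 373, 277, 331 and 220 CPM, and CD74 305, 152, 156, 107, 94.9, 54.8 and 91.8 CPM. MERTK, the receptor tyrosine kinase by which microglia clear apoptotic cells, had 931, 984, 922, 1293, 1206, 1352 and 967 CPM, so its lower level in the low nuclei was met again in the highest bin. The microglial identity list stayed between 11680 and 12570 CPM over the 7 bins. The highest bin was unlike the others in 2 ways, since 30.4% of its nuclei were of cluster 9 against 56.8% to 71.8% in the others, and its lymphocyte list stood at 1303 CPM against at most 144.

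**Figure D4:**
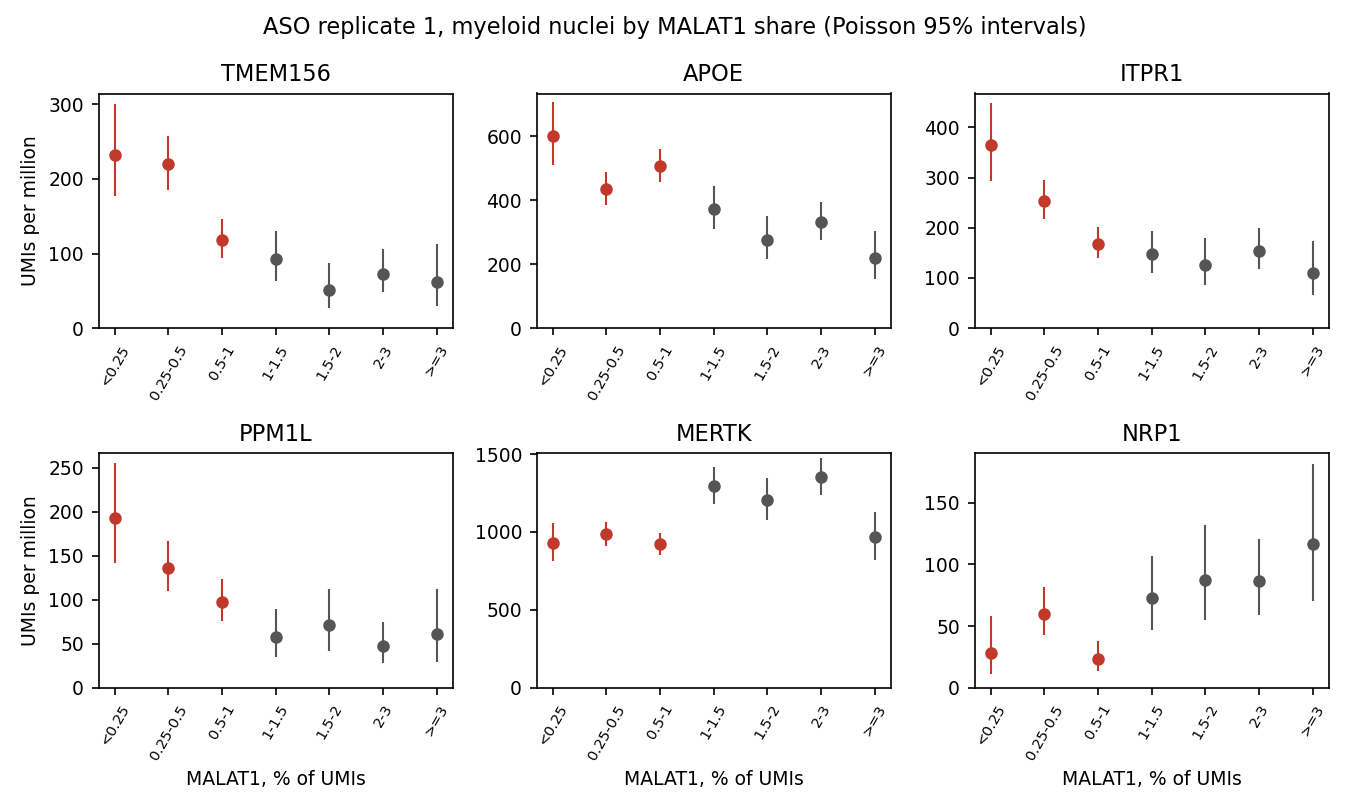
CPM (y axis, from 0) of 6 genes over 7 bins of MALAT1 share (x axis, percent of UMIs) in myeloid nuclei of ASO replicate 1, red under 1% and grey above, with Poisson 95% intervals. TMEM156 goes from 233 in the lowest bin to 61.2 in the highest, and MERTK is at 931 in the lowest.

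A nucleus with little MALAT1 can differ from its neighbours in an animal without such a population too. In each of the 8 other animals the 25% of myeloid nuclei with the least MALAT1 in each cluster were therefore compared with matched nuclei of the rest. In the 3 saline animals 1 of 8555 genes (0.0117%) passed edgeR's quasi-likelihood test at an adjusted p under 0.05, with 440 genes at an unadjusted p under 0.05. That gene was ZNF804A, lower by a log2 change of -0.49 (SE 0.11, edgeR adjusted p = 0.0428), and DESeq2 called 0 genes. Over all 8 animals 0 of 8142 genes passed, with 430 at an unadjusted p under 0.05.

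The difference of ASO replicate 1 was then tested against that of the 8 animals in 1 edgeR fit with the animal as a block, a test added after the data were seen. It takes the spread of the single animal to be that of the other 8, and the 2 sides use unlike limits, under 1% MALAT1 in ASO replicate 1 and the lowest 25% elsewhere. The calls below therefore rest on that assumed spread, and there were 0 of them with DESeq2 and 0 without the animal as a block. Of 11688 genes 8 passed (0.0684%), 5 higher and 3 lower in the low nuclei of ASO replicate 1, with 521 at an unadjusted p under 0.05. Labels do not tie libraries to anything beyond the animal, so what is particular to that animal and what goes with low MALAT1 cannot be told apart.

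TMEM156 was higher, with a log2 difference between the contrasts of 1.54 (SE 0.25, edgeR adjusted p = 1.93e-05). Its ratio of 2.68 in ASO replicate 1 lay above the ratios of the lowest 25% of the 8 animals, which ran from 0.655 to 1.26 with 3 above 1. Over all myeloid nuclei of the animal, TMEM156 was at 134 CPM, and the saline animals were at 140, 131 and 114. ASO replicates 2 and 3 were at 94.6 and 80.8 CPM, and OTV replicates 1, 2 and 3 at 33.9, 163 and 173. The level of the whole class in ASO replicate 1 was thus inside the saline range, with 193 CPM in the paired low nuclei and 71.9 in the partners.

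APOE (log2 difference 0.74, SE 0.16, edgeR adjusted p = 0.00687), PPP1R13B (1.25, SE 0.28, adjusted p = 0.0276), ITPR1 (0.94, SE 0.22, adjusted p = 0.035) and PPM1L (1.24, SE 0.29, adjusted p = 0.0419) also passed higher. PPP1R13B encodes a protein that binds p53. The ratios of the lowest 25% of the 8 animals ran from 0.847 to 1.11 for APOE, 0.590 to 1.18 for PPP1R13B and 0.657 to 1.37 for ITPR1, all below the ratios of 1.58, 1.97 and 1.76. For PPM1L they ran from 0.697 to 2.86, so 1 animal exceeded its ratio of 2.35.

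MERTK passed lower, with a log2 difference of -0.46 (SE 0.09, edgeR adjusted p = 0.0053), with a ratio of 0.746 (1059 and 1418 UMIs) beside 0.930 to 1.05 in the 8 animals. NRP1, a co-receptor for semaphorins and vascular growth factor, had 30 and 99 UMIs (ratio 0.303, 0.194 to 0.459) beside 0.768 to 2.63, and a log2 difference of -1.83 (SE 0.33, edgeR adjusted p = 0.000203). Its ratio was 0.584 with a limit of 0.5%, 0.579 with the lowest 25% and 0.452 without matching. COLEC12 also passed (edgeR adjusted p = 1.17e-05), on the few nuclei described above. Its levels elsewhere were low too, between 2 and 118 UMIs in an animal.

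Only TMEM156 and ITPR1 of the 8 still passed when the lowest 25% was used in ASO replicate 1 as well, where 150 nuclei a side remain and the partners include nuclei under 1%. That setting called 12 genes in all, so 10 of them were not among the 8. TMEM156 had adjusted p = 1.63e-05 there and ITPR1 0.0229 by edgeR, with log2 differences of 1.72 and 1.01. Those of the lost genes were 0.34 for APOE, 1.00 for PPP1R13B, 0.82 for PPM1L, -0.25 for MERTK, -0.92 for NRP1 and -2.22 for COLEC12. In clusters taken alone TMEM156 passed in both (edgeR adjusted p = 0.0349 in cluster 7 and 0.0205 in cluster 9). APOE, MERTK, ITPR1 and PPP1R13B passed in neither, and NRP1 and PPM1L passed in cluster 9 but not in cluster 7, where the log2 difference of PPM1L was 0.35. COLEC12 passed in cluster 9 and was not tested in cluster 7. None of the 8 passed with DESeq2, where TMEM156 had an adjusted p of 0.0752. With saline replicate 1 left out 4 genes passed (TMEM156, NRP1, APOE and COLEC12), and with ASO replicate 3 left out 19 passed.

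**Figure D5:**
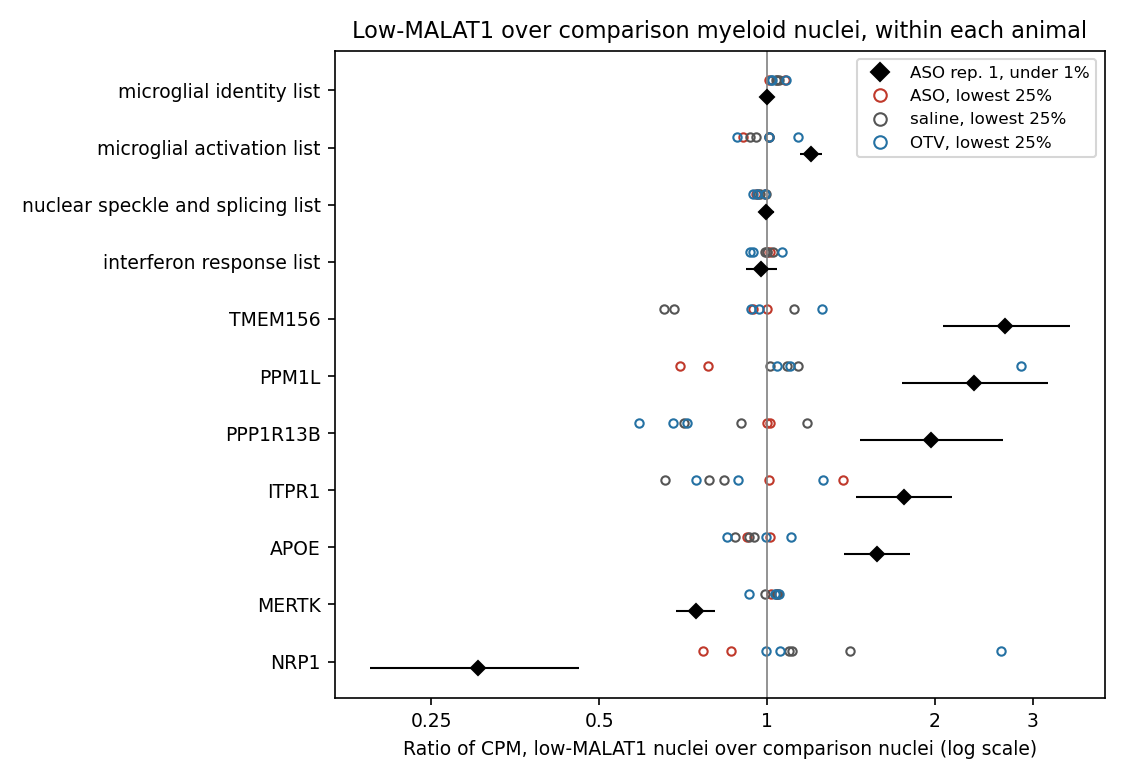
Ratio of CPM in low-MALAT1 over comparison myeloid nuclei (x axis, log scale) for 4 gene lists and 7 of the 8 genes that passed. Diamonds are the nuclei under 1% in ASO replicate 1 with 95% counting intervals, and open circles the lowest 25% by MALAT1 in each of the other 8 animals. TMEM156 stands at 2.68 beside 0.655 to 1.26.

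By list, 1 of 26 tested activation genes passed higher (APOE) and 1 of 11 border macrophage genes lower (COLEC12, which is also the 1 of 18 uptake receptors), beside 0.0684% of all genes. None of the 32 speckle and splicing genes, 20 interferon genes, 19 nucleic acid sensors or 24 identity genes passed, which does not show that they were unchanged, since the fit found few of the changes put into simulated data. The median log2 difference was 0.21 for activation genes and 0.02 for speckle and splicing genes, beside 0.00 for all genes. CLEC7A had a log2 difference of 2.23 (SE 0.54, edgeR adjusted p = 0.0516) and CD74 of 0.97 (SE 0.48, adjusted p = 1.0), so neither passed.

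Set against the 3 saline animals, 0 of 11720 genes passed in the paired low nuclei (0.0% of genes; edgeR, 820 at an unadjusted p under 0.05, and 36 passed by DESeq2) and 0 in their partners (774 and 30). Both comparisons share the saline animals and hold 1 animal on the other side. The saline sums take all myeloid nuclei, with no matching of cluster or depth. Cluster 9 made up 59.8% of the paired nuclei, but 314 of 786, 353 of 767 and 109 of 459 nuclei in saline replicates 1, 2 and 3. Cluster mix and treatment are therefore not separated in the changes below. Without saline replicate 3 the counts were 85 and 68. Log2 changes are given side by side. TMEM156 was at 0.56 (SE 0.18) in the low nuclei and -0.86 (SE 0.21) in the partners, ITPR1 at 0.91 and 0.09, APOE at 0.43 and -0.23, and PPM1L at 0.77 and -0.47. MERTK was at -1.25 (SE 0.19) and -0.83 (SE 0.18), and in all myeloid nuclei it had 1071 CPM in ASO replicate 1 against 2034, 2101 and 2372 in saline. A low MERTK level was not particular to that animal, with 1516 and 1761 CPM in ASO replicates 2 and 3. OTV replicates 1, 2 and 3 had 1655, 952 and 1146 CPM of MERTK. SGCB was at 1.75 and 1.51, and ENSMFAG00000046424 at 7.90 and 7.89.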

How the data were processed

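Per the submitters' processing notes, Cell Ranger 6.1.2 and Seurat 4 were used. The authors deposited raw UMI counts per gene and nucleus (unit: counts, 29128 features), with cell type, cluster and doublet score per nucleus. The same table holds the authors' percent of ribosomal UMIs, which was used only to describe nuclei. The notes also list GRCh38.p13, a human build, without its role, while feature names include identifiers of Macaca fascicularis (ENSMFAG), and the labels' extraction text speaks of mouse tissue. Which build was used for counting is therefore unknown here. The members and gene lists were chosen with earlier results of these data known. Nuclei were paired by optimal assignment within cluster on total UMIs without MALAT1 (within 0.25, log2), and raw counts were summed. Ratios carry exact 95% intervals. Genes were named as the 10 highest and 10 lowest ratios with 20 UMIs among genes with a symbol, the 3 most abundant genes and the genes past 2-fold of each list, and the genes of the earlier ASO result. Genes named with 200 UMIs, by interval or by the added fit, and list members given as further examples (P2RY12, CX3CR1, CD163, LRP1, MSR1, AXL and ITGAX), were chosen after their values were seen. Where several animals allowed a test, sums were fitted in edgeR 4.0.16 (TMM, filterByExpr, robust quasi-likelihood, Benjamini-Hochberg over all genes tested). The fits and intervals were tested on simulated data, where the fit against 8 animals found few of the changed genes. The animal is a true block, since both sums come from it. The test written for the paired contrast needs several animals and was replaced by ratios. Counting intervals and floors cover counting error only.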

Additional observations from a re-analysis of the deposited data

How the results depend on the processing

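The share of 57.0% became 30.9% with a limit of 0.5% and 68.8% with 1.5%. Without the filter on low counts 1328 genes were 2-fold higher and 3336 lower. There, 1 UMI against 0 was scored as 2-fold apart before scaling. Equal counts scaled to a ratio of 0.998, so such genes passed as lower but not as higher. The direction of this split is therefore not a result about the nuclei. The lowest 25% per cluster gave 0.964 for the identity list and 1.055 for the activation list, which was 1.27 in cluster 7. The lymphocyte ratio was 0.335 against nuclei of 2% MALAT1 or more and 0.232 in cluster 7, and it crossed 1 in cluster 9 (1.04) and without nuclei carrying 3 lymphocyte genes (1.02). NDFIP1 crossed 1 under the lowest 25% (1.05) and RIN3 in cluster 7 (0.922). The cause was not tested. Of 421 recomputed values of single genes, 347 stayed inside their interval or kept their call. Of the rest 44 lost the call, 28 moved out of their interval and 2 crossed 1. These values cover a chosen set of genes only. HERC5 (0.944) and ECHDC3 (0.80) also crossed 1 under the lowest 25% and are not counted. Some settings could hardly move a ratio, as TMEM156 went from 2.679 to 2.683 with DESeq2 size factors and to 2.722 with MALAT1 kept in the totals. The 347 are therefore not a measure of stability.

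The lone gene of the saline fit of the lowest 25% was lost (0 calls) with DESeq2, no filter, no replicate block, the lowest 10%, all 8 animals, or any saline animal left out (0 to 0). The low nuclei against saline gave 36 calls with DESeq2, 315 with no filter, 7 in cluster 9 and 0 to 85 with 1 saline animal left out, the 85 without saline replicate 3. For the partners these were 30, 242, 4 and 0 to 68, the 68 again without saline replicate 3.

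The 8 calls against 8 animals became 0 with no replicate block and 0 with DESeq2 (138 genes at an unadjusted p under 0.05), 5 in cluster 7, 5 in cluster 9, 13 with saline animals only and 19 without nuclei carrying 3 lymphocyte genes. Leaving out 1 animal gave 4 (without saline replicate 1) to 19 (without ASO replicate 3), with 14 without ASO replicate 2 and 15, 13 and 13 without OTV replicates 1, 2 and 3. TMEM156, NRP1, APOE and COLEC12 passed with each of the 8 animals left out. All of these fits keep the same nuclei of ASO replicate 1, so they cannot show how stable its own difference is. ITPR1 and MERTK were lost without saline replicate 1, 2 or 3 (highest edgeR adjusted p 0.067 and 0.114), PPM1L without saline replicate 1 or ASO replicate 2 (0.0642) and PPP1R13B without saline replicate 1 (0.0607).

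The paired contrast in ASO replicate 1 allows no DESeq2 test, no fit without the block and no leaving out of an ASO animal, because 1 animal holds all the nuclei. All alternatives of the fit against 8 animals, the lymphocyte gene filter and the lowest 25% in ASO replicate 1 were chosen after seeing the data. Depth limits the lists, since 11 of 23 cytokine genes and 9 of 15 border macrophage genes in the table reached 20 UMIs.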
